A study of Mus musculus with 10 samples.

Results

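The levels of 10 transcription factor genes that direct the trophoblast and endoderm lineages of the mouse embryo were followed through the reprogramming of fibroblasts to pluripotency. They were taken by symbol, from a list drawn up with earlier results of these data known. They are 10 of the 45706 genes in the deposited tables. Cdx2, Elf5, Gata3, Tfap2a and Tfap2c are on the trophoblast side, and Gata4, Gata6, Sox7, Sox17 and Hnf4a on the endoderm side. RNA was sequenced in 10 libraries, 2 for each of 5 groups, and 9 of the 10 genes had enough reads to be tested, as did 20165 genes in all. Cdx2 did not.

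The uninduced group (MEF) held embryonic fibroblasts of a C57BL/6 x 129 background. They carried a doxycycline-inducible cassette for Oct4, Klf4, Sox2 and Myc at Col1a1 (OKSM) and the M2rtTA activator at Rosa26, and were grown in MEF medium without doxycycline. Cells of the same genotype were then kept in ESC medium with 1 µg/ml doxycycline and 50 µg/ml ascorbic acid for 3, 6 or 9 days. The day 3 cells were taken as a whole population, whereas those of day 6 and day 9 were sorted for the surface antigen SSEA1, so time and sorting cannot be told apart between day 3 and day 6. The reference group (ESC) was the single embryonic stem cell line V6.5, without the cassette, unsorted and grown on irradiated feeder cells. The replicates are called biological in the series' design, but nothing says that they came from separate cultures, so p-values measure the spread between these libraries, which may be technical.

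In the mouse blastocyst, the outer trophectoderm depends on CDX2, GATA3 and the AP-2 factor TFAP2C, and ELF5 later maintains trophoblast stem cells. The primitive endoderm depends on GATA6, followed by GATA4, SOX17 and SOX7, and HNF4A is made in its visceral endoderm descendants. Pluripotent cells normally hold both programmes low, yet GATA3, GATA6 and SOX7 have been used in place of Oct4 in mouse reprogramming, and several of the 10 factors have other roles: TFAP2A in epidermis and neural crest, ELF5 in mammary epithelium, and GATA4 and GATA6 in heart and other mesoderm.

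The libraries held 29585876 to 38275024 estimated reads each. Summed levels of 12 fibroblast markers lay between 50220.9 and 51704.7 CPM (reads scaled to the depth of each library, with TMM) in MEF and 127 to 135 CPM at day 9, and those of 10 pluripotency markers between 8.54 and 8.61 CPM in MEF and 5448 to 5588 CPM in ESC. In the ESC libraries the fibroblast markers still summed to 4495 to 4638 CPM. With bulk RNA, fewer cells of a type and less RNA per cell cannot be told apart.

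The 10 genes did not move as a block. Tfap2c, Tfap2a and Elf5 rose during induction, Gata6, Gata4 and Sox7 fell from their MEF level, Gata3 passed no test, Hnf4a and Sox17 had at most 22 reads in any library and Cdx2 was not detected outside ESC. Calls below rest on the quasi-likelihood test of edgeR with Benjamini-Hochberg adjustment over all 20165 genes, with the adjusted p required to be under 0.05 and the log2 difference to be 1 or more in size. A count of 3 reads, taken as the detection floor, was worth 0.0758 to 0.111 CPM depending on the library. The plot of levels by library shows these courses.

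**Figure D1:**
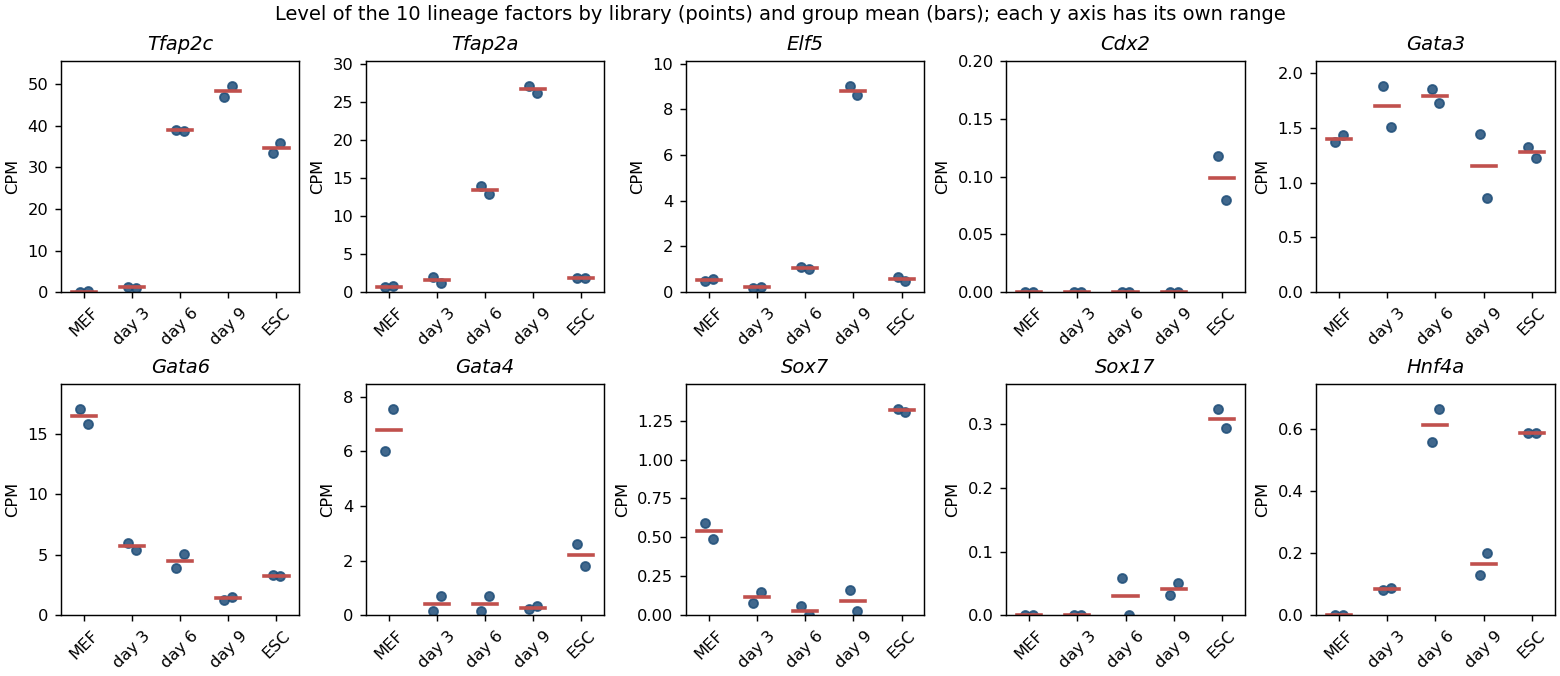
Level of each of the 10 genes in CPM (y axis, own range per panel) in the 2 libraries (points) of MEF, day 3, day 6, day 9 and ESC, with the group mean as a bar. Tfap2c, Tfap2a and Elf5 have their highest mean at day 9, Gata6 and Gata4 in MEF, and Sox7, Sox17 and Cdx2 in ESC.

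Some results below concern transcripts with different start sites, so RefSeq promoter windows of Elf5 and Tfap2a are shown first. RefSeq (GRCm38.p6) promoter windows, 250 bases before a start site to 50 after it, matched 5 of the 10 genes: Gata3, Elf5, Hnf4a, Cdx2 and Tfap2a. The upstream window of Elf5 is chr2:103411848-103412147, on the plus strand, and the downstream window is chr2:103423818-103424117, also plus. Of the RefSeq windows of Tfap2a, the one printed is chr13:40733746-40734045 on the minus strand, which holds the start of its transcript Tfap2a-202. The other, chr13:40734871-40735170, also on the minus strand, holds no start of a counted transcript and is not printed. It had 11 CpG and 1 match to the motif below. Capitals mark matches to CACCC, the core bound by KLF factors, read on either strand and so also written GGGTG.
Elf5 upstream: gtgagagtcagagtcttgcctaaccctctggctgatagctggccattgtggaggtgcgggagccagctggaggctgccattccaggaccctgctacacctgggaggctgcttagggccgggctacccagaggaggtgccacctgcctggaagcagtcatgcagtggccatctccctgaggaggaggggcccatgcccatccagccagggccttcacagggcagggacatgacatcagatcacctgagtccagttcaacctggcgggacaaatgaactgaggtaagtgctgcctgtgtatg
Elf5 downstream: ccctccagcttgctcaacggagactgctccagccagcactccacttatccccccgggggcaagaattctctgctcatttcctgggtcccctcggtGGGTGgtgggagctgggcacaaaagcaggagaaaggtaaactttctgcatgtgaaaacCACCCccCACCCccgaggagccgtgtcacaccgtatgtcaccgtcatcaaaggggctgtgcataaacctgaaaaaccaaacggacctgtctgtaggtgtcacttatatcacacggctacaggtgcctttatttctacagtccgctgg
Tfap2a: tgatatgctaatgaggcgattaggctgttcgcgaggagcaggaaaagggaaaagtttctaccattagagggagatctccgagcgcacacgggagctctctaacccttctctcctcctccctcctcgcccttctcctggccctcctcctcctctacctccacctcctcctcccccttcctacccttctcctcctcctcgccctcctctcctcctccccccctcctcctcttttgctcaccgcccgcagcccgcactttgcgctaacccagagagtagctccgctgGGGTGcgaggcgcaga
The upstream Elf5 window had 3 CpG dinucleotides and no CACCC, and the downstream window had 10 CpG and 3 matches. The printed Tfap2a window had 15 CpG and 1 match. CACCC occurred in 57.5% of 32851 RefSeq promoter windows of that length, so a match is common. None of the 3 printed windows held the AP-2 palindrome GCCNNNGGC (16.6% of windows), the GATA core AGATAA (11.2%) or the octamer ATGCAAAT (1.74%), each searched on both strands. A match is only a description of the sequence, and binding was not analysed here.

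Tfap2c, on chromosome 2 (GRCm38, 172549593 to 172558622, plus strand), encodes AP-2 gamma, a factor of trophoblast, germ cells and epidermis. Its estimated reads were 2 and 5 in the MEF libraries, 48 and 37 at day 3, 1330 and 1284 at day 6, and 1460 and 1965 at day 9, with 1135 and 1345 in ESC. No group overlapped another in CPM, and the order of mean levels was day 9, day 6, ESC, day 3 and MEF. The mean level was 0.113 ± 0.056 CPM (SD, n = 2) in MEF, 1.19 ± 0.14 at day 3, 39.0 ± 0.19 at day 6, and 48.3 ± 1.9 at day 9, with 34.7 ± 1.8 in ESC. The largest step was from day 3 to day 6, a log2 difference of 5.02 (SE 0.1, adjusted p by edgeR = 2.6e-14). Day 3 was already 9.96-fold above MEF, a log2 difference of 3.32 (SE 0.35, adjusted p by edgeR = 1.1e-06). From day 9 to ESC the level was 1.39-fold lower, a log2 change of -0.48 (SE 0.06, adjusted p by edgeR = 3.3e-06), under the fold needed for a call. ESC remained 288-fold above MEF, a log2 difference of 8.17 (SE 0.16, adjusted p by edgeR = 4.5e-15). With only 2 and 5 MEF reads, the values against MEF depend on the library: without MEF replicate 2 they were 3.96 for day 3 and 8.8 for ESC. Per length, Tfap2c stood at 8.77 ± 0.33 TPM (SD, n = 2; a level scaled by transcript length) at day 9 and at 7.42 ± 0.036 TPM in ESC, the highest of the 10 genes in both groups.

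The reads of Tfap2c were assigned to several annotated transcripts. The noncoding processed transcript Tfap2c-002 took 21.4% of them at day 6 and 21.8% at day 9, but 0 reads in both ESC libraries. The coding transcript Tfap2c-201 held 35.1% at day 9 and 43.2% in ESC. Reads of 50 nt seldom tell such transcripts apart, and these shares are estimates that were not tested.

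Tfap2a (chromosome 13, 40715302 to 40738376, minus strand) encodes AP-2 alpha. It had 17 and 27 reads in MEF, 75 and 40 at day 3, 476 and 429 at day 6, and 845 and 1038 at day 9, with 64 and 67 in ESC. The 4 libraries of day 6 and day 9 lay above all others, and those of day 3 and ESC overlapped in CPM. Its mean level went from 0.726 ± 0.14 CPM (SD, n = 2) in MEF to 13.5 ± 0.72 at day 6 and 26.7 ± 0.67 at day 9, and was 1.84 ± 0.068 in ESC. Day 6 was 8.33-fold above day 3, a log2 difference of 3.06 (SE 0.16, adjusted p by edgeR = 7.7e-10). The further difference of day 9 from day 6 was 1.98-fold, a log2 difference of 0.98 (SE 0.12, adjusted p by edgeR = 1.2e-05), which fell short of a call. Without day 6 replicate 1, without day 9 replicate 2 or with library-size scaling it was 1.04, 1.01 and 1.0 and was called. ESC was 14.5-fold below day 9, a log2 change of -3.86 (SE 0.15, adjusted p by edgeR = 1.6e-11), and 2.49-fold above MEF, at 1.32 (SE 0.26, adjusted p by edgeR = 0.00034). The early rise, day 3 against MEF, was 1.13 (SE 0.27, adjusted p by edgeR = 0.0018), and its call was lost without MEF replicate 1 (0.97) or day 3 replicate 1 (0.69).

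The estimated split of Tfap2a reads between transcripts, which was not tested, differed between groups. All reads in MEF and ESC were assigned to Tfap2a-202, which starts at 40733823, inside the window printed above. At day 3, Tfap2a-201, which starts downstream at 40730443, held 50 and 25 reads against 25 and 15 for Tfap2a-202, or 65.6% of the total. It held 18.5% at day 6 and 22.8% at day 9. The antisense gene Gm26688 overlaps Tfap2a and had 0 to 11 reads per library, with the highest values, 8 and 11, at day 9. Whether the authors' counting used strand is not given in the sources used here, so reads of the gene and of its antisense partner cannot be told apart.

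Elf5 (chromosome 2, 103411688 to 103450989, plus strand) encodes an ETS factor of trophoblast stem cells and secretory epithelium. It had 13 and 19 reads in MEF, 7 and 8 at day 3, 37 and 33 at day 6, and 281 and 341 at day 9, with 23 and 18 in ESC. Both day 9 libraries stood far above the rest, and ESC and MEF overlapped in CPM. The mean level was 8.82 ± 0.30 CPM (SD, n = 2) at day 9, against 1.04 ± 0.063 at day 6, 0.579 ± 0.14 in ESC and 0.530 ± 0.070 in MEF. Day 6 exceeded day 3 by a log2 difference of 2.28 (SE 0.32, adjusted p by edgeR = 2.9e-05), and the largest step was day 9 against day 6, at 3.08 (SE 0.22, adjusted p by edgeR = 8.3e-08). ESC was 15.2-fold below day 9, a log2 change of -3.93 (SE 0.24, adjusted p by edgeR = 2.3e-09). ESC and MEF were not called different, with a log2 difference of 0.11 (SE 0.31, adjusted p by edgeR = 0.79). Day 3 was below MEF by a log2 change of -1.32 (SE 0.36, adjusted p by edgeR = 0.0056), a call that was lost without MEF replicate 2 (edgeR adjusted p = 0.061).

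The low Elf5 signal outside day 6 and day 9 lay mostly on a different transcript. In MEF and at day 3, all of it was assigned to Elf5-002, a retained-intron transcript that starts at 103411713, upstream of the first window printed above. The other Elf5 transcripts had 0 reads in all 4 of those libraries, then 21 and 18 reads at day 6, 249 and 307 at day 9 and 6 and 1 in ESC. Elf5-001, which is coding and starts at 103424062 in the downstream window, made up 46.9% of the reads at day 6 and 57.5% at day 9. Elf5-002 itself had 13 and 19 reads in MEF, 16 and 15 at day 6, 32 and 33 at day 9 and 17 and 17 in ESC, where it was 83.2% of the total. Protein-coding Elf5 transcripts were thus detected from day 6 onward, and in ESC in 1 library only, with 6 reads. These transcript values were not tested, and the plot of reads by transcript sets them beside those of Tfap2a and Tfap2c.

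**Figure D2:**
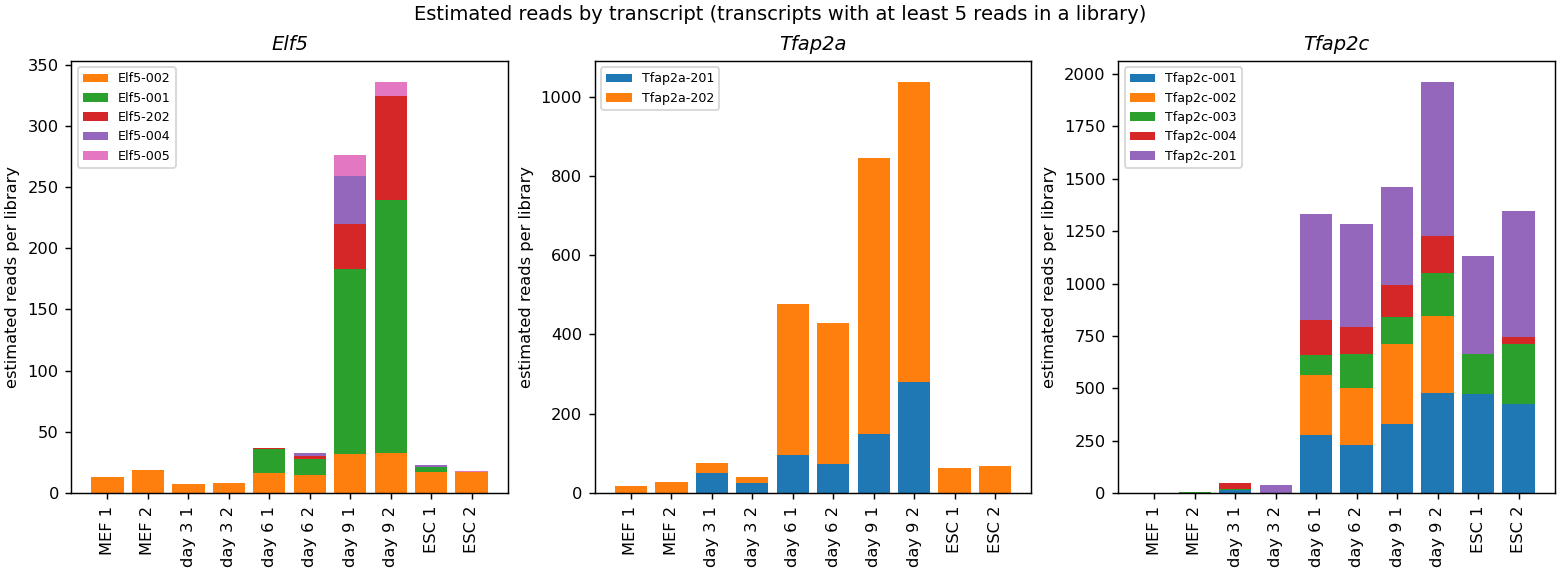
Estimated reads (y axis) per library (x axis), stacked by annotated transcript, for Elf5, Tfap2a and Tfap2c; transcripts with under 5 reads in every library are left out. Elf5 reads of MEF and day 3 are all Elf5-002, whereas Elf5-001 leads at day 9, and Tfap2a-201 appears at day 3, 6 and 9 but not in MEF or ESC.

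Cdx2 (chromosome 5, 147300805 to 147307270, minus strand), the factor that sets up the trophectoderm, had 0 reads in the 8 libraries of MEF, day 3, day 6 and day 9. The 2 ESC libraries had 4 and 3 reads, a mean of 0.0990 CPM. It was therefore at or near the floor of 3 reads everywhere, and no fold or test is given. Gata3 (chromosome 2, 9857078 to 9890034, minus strand), which acts beside it in trophectoderm, had 37 and 47 reads in MEF, 70 and 51 at day 3, 63 and 57 at day 6, and 45 and 34 at day 9, with 45 and 46 in ESC. Its group means lay between 1.15 and 1.79 CPM, with overlap between day 6 and day 3 and of day 9 with both ESC and MEF. None of its 6 comparisons was called, with edgeR adjusted p from 0.1 (day 9 against day 6, log2 change -0.65, SE 0.29) to 0.86. Without day 9 replicate 1, day 9 against day 6 was -1.06 and was called.

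The deposited TPM of Gata3 went a different way from its counts. It averaged 0.913 in MEF, 2.78 at day 6, 0.2999 at day 9 and 1.60 in ESC. Between 0 and 4 reads per library were assigned to Gata3-002, a transcript with an effective length of 18.3 bases, on which few reads make a large TPM. Leaving out transcripts with an effective length under 200 bases, the TPM of Gata3 lay between 0.258 and 0.2999 in all 5 groups.

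Gata6 (chromosome 18, 11052064 to 11085635, plus strand), the earliest of the primitive endoderm factors, was highest in the fibroblasts. It had 462 and 520 reads in MEF, 223 and 183 at day 3, 132 and 167 at day 6, and 39 and 60 at day 9, with 114 and 120 in ESC. Groups next to each other in level did not overlap, and the order was MEF, day 3, day 6, ESC and day 9. The mean was 16.5 ± 0.86 CPM (SD, n = 2) in MEF, 5.71 ± 0.42 at day 3, 4.47 ± 0.83 at day 6, and 1.38 ± 0.19 at day 9, with 3.28 ± 0.11 in ESC. Day 3 was 2.88-fold below MEF, a log2 change of -1.53 (SE 0.13, adjusted p by edgeR = 1.4e-07), and day 9 was 3.19-fold below day 6, at -1.67 (SE 0.18, adjusted p by edgeR = 3.9e-06). Day 6 against day 3 was not called, at -0.36 (SE 0.15, adjusted p by edgeR = 0.051). ESC was 2.35-fold above day 9, a log2 difference of 1.23 (SE 0.18, adjusted p by edgeR = 3.1e-05). With limma on log2(TPM + 1) these 3 differences, at -0.9, -0.5 and 0.35, fell short of the fold threshold. The antisense gene 1010001N08Rik overlaps Gata6 and had 17 and 23 reads in MEF and 1 to 8 in the other libraries.

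Gata4 (chromosome 14, 63198922 to 63271692, minus strand), which follows Gata6 in primitive endoderm, was also highest in the fibroblasts. It had 163 and 248 reads in MEF, 5 and 24 at day 3, 5 and 23 at day 6, and 7 and 13 at day 9, with 89 and 67 in ESC. The 3 induced groups overlapped, and both MEF and ESC stood clear of them. Day 3 was 16.3-fold below MEF, a log2 change of -4.03 (SE 0.53, adjusted p by edgeR = 1.1e-05), after which neither step between induced groups was called. ESC was 7.73-fold above day 9, at 2.95 (SE 0.59, adjusted p by edgeR = 0.00046), and 3.09-fold below MEF, at -1.63 (SE 0.44, adjusted p by edgeR = 0.0036). The 2 libraries of day 3 and of day 6 differed several-fold from each other in this gene: day 3 against MEF was -3.25 without day 3 replicate 1 and -5.61 without day 3 replicate 2, and was called in both. Per length, Gata6 and Gata4 were the highest of the 5 endoderm factors in MEF, at 2.56 ± 0.17 and 1.57 ± 0.29 TPM (SD, n = 2).

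Fibroblast markers were also highest in MEF, and the ESC cells were grown on feeders. At day 3 against MEF 10 of the 12 markers were lower (14.5% of all genes), as were Gata6 and Gata4. At day 6 against day 3 all 12 were lower (10.2% of all genes), a step in which neither gene was called. Relative to MEF, the ESC level of the 12 fibroblast markers ranged from 1.11% (Lum) to 14.0% (Thy1), with a median of 8.62%. Gata6 in ESC stood at 19.9% of its MEF level (18.8 to 21.2 over library pairs) and Gata4 at 32.5% (23.7 to 43.5), above all 12 markers. At day 9 the markers ranged from 0% to 2.87% of MEF, against 8.41% for Gata6 and 4.07% for Gata4. The part of feeder or residual fibroblast RNA in the Gata6 and Gata4 values was not tested.

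**Figure D3:**
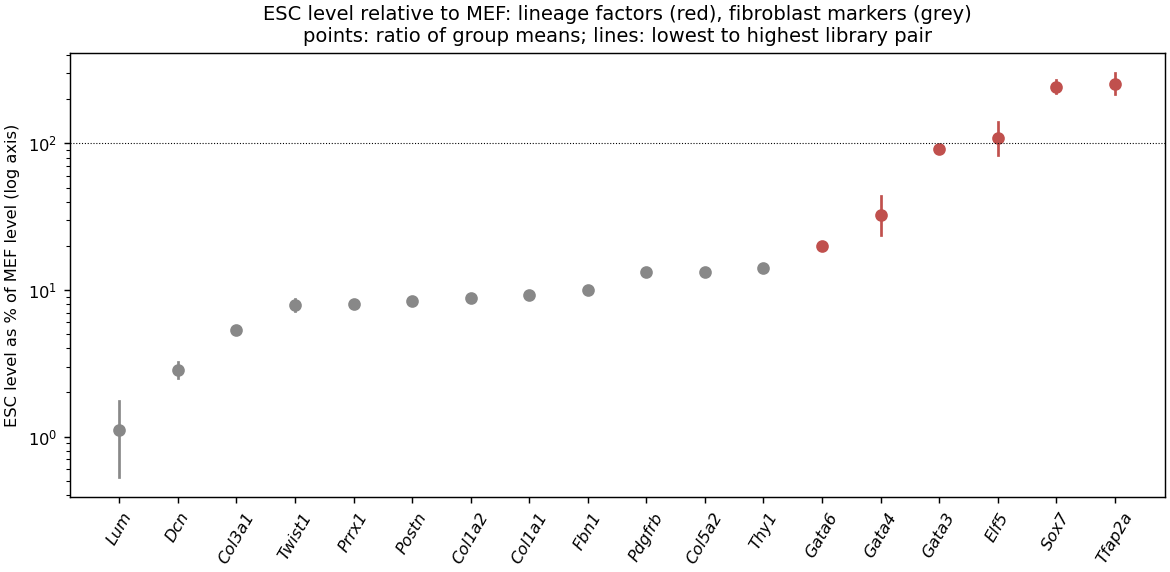
ESC level as a percentage of the MEF level (log axis) for 12 fibroblast markers (grey) and the 6 lineage factors with at least 10 reads in each MEF library (red); points are ratios of group means and lines span the library pairs. All markers lie at or below 14.0%, Gata6 lies at 19.9%, Gata4 at 32.5%, and Sox7 and Tfap2a lie above 200%.

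Sox7 (chromosome 14, 63943673 to 63950732, plus strand), a factor of parietal endoderm and of endothelium, had 16 and 16 reads in MEF, 3 and 5 at day 3, 2 and 0 at day 6, and 5 and 1 at day 9, with 45 and 49 in ESC. The 2 ESC libraries were the highest and the 3 induced groups lay near the floor. Day 3 was 4.63-fold below MEF, a log2 change of -2.21 (SE 0.67, adjusted p by edgeR = 0.01), a call that was lost without day 3 replicate 1. Day 9 was also below MEF, at -2.59 (SE 0.71, adjusted p by edgeR = 0.0044), with -4.23 without day 9 replicate 1 and a lost call at -1.72 without day 9 replicate 2. ESC was 14.7-fold above day 9, at 3.87 (SE 0.65, adjusted p by edgeR = 0.0001), and was called without day 9 replicate 1 (5.51) or day 9 replicate 2 (3.0). Against MEF it was 2.44-fold higher, at 1.29 (SE 0.51, adjusted p by edgeR = 0.034), and this call was lost with DESeq2 (adjusted p = 0.23) and without any single MEF or ESC library. The 10 endothelial markers summed to 17.5 to 20.6 CPM in MEF, 102 CPM in both day 9 libraries and 141 to 148 CPM in ESC, where Pecam1, also made by pluripotent cells, was 99.0 CPM of the sum and Cdh5 stood at 0.1004 CPM. Tek alone averaged 68.3 CPM at day 9. Emcn averaged 4.15 CPM in MEF, 0.043 at day 3, 0.0126 at day 9 and 1.30 in ESC. For Robo4 these values were 0.211, 0, 0.0413 and 2.16. Emcn and Robo4 were called lower at day 3 than in MEF and higher in ESC than at day 9, as Sox7 was. Tek and Cdh5 were called the opposite way in both. At day 3 against MEF, 3 of the 10 were higher and 4 lower (14.6% and 14.5% of all genes). In ESC against day 9, 5 were higher and 4 lower (18.6% and 14.3%). The part of endothelial cells in the Sox7 values was not tested.

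Sox17 (chromosome 1, 4490931 to 4497354, minus strand) is a factor of primitive and definitive endoderm. It had 0 reads in the 4 libraries of MEF and day 3, 2 and 0 at day 6, 1 and 2 at day 9 and 11 and 11 in ESC. Sox17 passed the low-count filter only through ESC, the group where it was highest, so its ESC calls are not independent of that filter. ESC was at least 3.05-fold above MEF, taking 3 reads per library as the floor (edgeR adjusted p = 0.0021). Against day 9, where both libraries lay under the floor, ESC was also called (edgeR adjusted p = 0.016), and no fold is given. That call was lost with DESeq2 (adjusted p = 0.27), without the low-count filter and without any single day 9 or ESC library.

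Hnf4a (chromosome 2, 163506808 to 163572910, plus strand), a nuclear receptor of visceral endoderm and liver, had 0 reads in both MEF libraries, 3 and 3 at day 3, 19 and 22 at day 6, and 4 and 8 at day 9, with 20 and 22 in ESC. Day 6 and ESC overlapped and stood above the other groups. Day 6 was 6.97-fold above day 3, a log2 difference of 2.8 (SE 0.57, adjusted p by edgeR = 0.00087). Day 9 was 3.58-fold below day 6, at -1.84 (SE 0.51, adjusted p by edgeR = 0.013), which was lost without day 6 replicate 2 or day 9 replicate 1, and for which DESeq2 gave no adjusted p. ESC was 3.44-fold above day 9, at 1.78 (SE 0.51, adjusted p by edgeR = 0.0069), which was lost with DESeq2 (adjusted p = 0.11) and without day 9 replicate 1. Against MEF, ESC was at least 5.82-fold higher (edgeR adjusted p = 2.7e-05) and day 9 at least 1.63-fold higher (edgeR adjusted p = 0.0018). Day 3 against MEF was also called (edgeR adjusted p = 0.015), but both groups lay at or under the floor, so no fold is given. DESeq2 did not call it (adjusted p = 0.081), and the call was lost without MEF replicate 1 or MEF replicate 2.

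**Figure D4:**
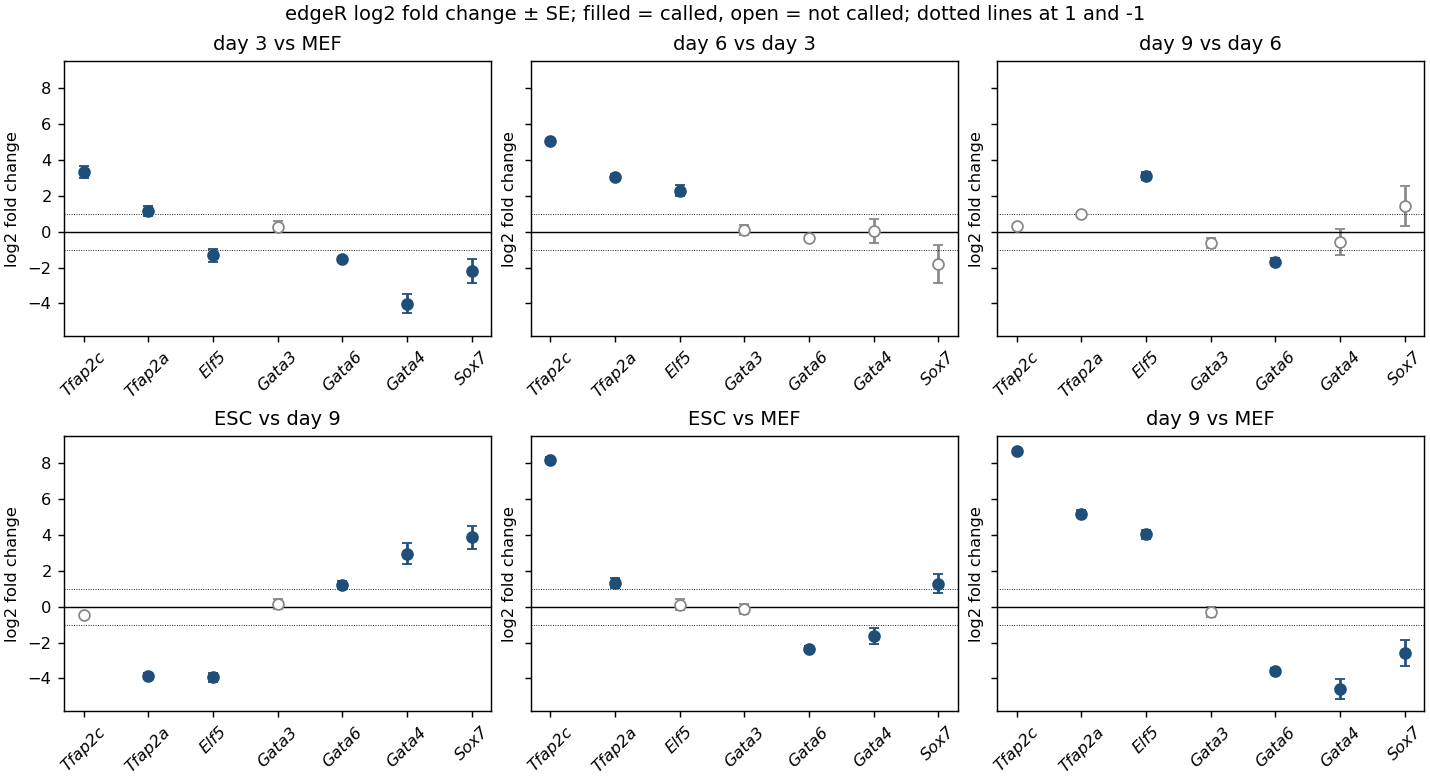
Log2 fold change (edgeR) with its standard error for 7 of the 10 genes in the 6 comparisons, filled where called; Sox17 and Hnf4a are left out because of groups at 0 reads, and Cdx2 because it was not tested. Tfap2c, Tfap2a and Elf5 reach 8.65, 5.18 and 4.04 at day 9 against MEF, while Gata6, Gata4 and Sox7 reach -3.56, -4.58 and -2.59.

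Counted by comparison, the members did not all go one way. At day 3 against MEF, 3 of the 9 tested members were higher (Tfap2c, Tfap2a and Hnf4a) and 4 lower (Elf5, Gata6, Gata4 and Sox7), where 29.1% of all tested genes were called (14.6% higher, 14.5% lower). Of these day 3 calls, those of Tfap2a, Hnf4a, Elf5 and Sox7 were each lost when certain single libraries were left out. At day 6 against day 3, 4 members were higher (Tfap2c, Tfap2a, Elf5 and Hnf4a) and 0 lower, against 19.5% of all genes. The median log2 fold change of the 9 was 2.28, against 0.033 over all tested genes. It counts Sox17 at 3.19, which was not called (edgeR adjusted p = 0.21) and rests on 2 reads in 1 day 6 library. Gata3, Gata6, Gata4 and Sox7 were at 0.07, -0.36, 0.02 and -1.8, and were not called. Of all tested genes, 9.26% were higher and 10.2% lower in this step.

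Later steps separated the factors again. At day 9 against day 6, Elf5 was the 1 member called higher and Gata6 and Hnf4a were the 2 called lower, where 7.87% of all genes were called (5.18% higher, 2.68% lower). In ESC against day 9, 5 members were higher (Gata6, Gata4, Sox7, Sox17 and Hnf4a, all 5 of the endoderm factors) and 2 lower (Tfap2a and Elf5), against 32.9% of all genes (18.6% higher, 14.3% lower). Sox17 passed the low-count filter only through ESC, so its ESC calls, and the set of all 5, draw on that filter. DESeq2 lost the calls of Sox17 and Hnf4a and had 3 higher, and limma on log2(TPM + 1) had 0 higher, with 2 lower in each. Over the whole course, ESC had 5 members above MEF (Tfap2c, Tfap2a, Sox7, Sox17 and Hnf4a) and 2 below (Gata6 and Gata4), where 46.1% of all genes were called (25.5% higher, 20.6% lower). Day 9 had 4 above MEF (Tfap2c, Tfap2a, Elf5 and Hnf4a) and 3 below (Gata6, Gata4 and Sox7), where 43.9% were called (24.1% higher, 19.8% lower). The 6 comparisons share libraries, so they do not support one another, and the members' counts were not tested against the shares over all genes.

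The wider trophoblast list of 24 genes, none of them a member, had 22 tested. At day 9 against day 6, 9 were higher and 0 lower, where 5.18% and 2.68% of all tested genes were, with a median log2 fold change of 1.26 against 0.0 over all genes. The 3 with the largest rise were Rhox9, a homeobox gene of the placenta and gonads (3.76, SE 0.35), the ligand Wnt7b (3.55, SE 0.42) and the growth factor Bmp8b (3.4, SE 0.3). The homeobox gene Rhox6 had 0 reads in MEF and at day 3, and averaged 2.49 CPM at day 6, 22.9 at day 9 and 2.05 in ESC. Plet1, a surface protein of trophoblast and other epithelia, went from 0.0337 CPM in MEF to 2.93 at day 3 and 22.4 at day 9.

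In ESC against day 9 the trophoblast list split, with 7 higher and 8 lower (18.6% and 14.3% of all genes). Krt8, an epithelial keratin, was lower by a log2 change of -3.74 (SE 0.07), Id2, an inhibitor of helix-loop-helix factors, by -3.68 (SE 0.05) and Rhox6 by -3.48 (SE 0.16). Esx1, a placental homeobox gene, was higher by 5.16 (SE 0.56) and Eomes, a T-box factor of trophoblast stem cells, by 4.85 (SE 0.48), the latter from 0.188 to 5.42 CPM. Among markers of differentiated placental cells, Tpbpa had 0 reads in all 10 libraries and Prl3d1 had reads in 1 MEF library only, at 0.0915 CPM, whereas Gcm1 averaged 0.457 CPM and Hand1 0.414 CPM in ESC. At day 3 against MEF the list had 4 higher and 5 lower (14.6% and 14.5% of all genes), with P-cadherin (Cdh3) lower from 219 to 0.694 CPM. It had 7 higher and 1 lower at day 6 against day 3 (9.26% and 10.2% of all genes), 12 and 3 at day 9 against MEF (24.1% and 19.8%), and 13 and 4 in ESC against MEF (25.5% and 20.6%).

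The summed level of the epidermal and keratinocyte markers was highest at day 9, as were Tfap2a, Elf5 and Tfap2c. Tfap2c averaged 48.3 CPM at day 9 and 34.7 in ESC and, unlike Tfap2a and Elf5, was not called lower in ESC. The summed level of the 10 markers was 17.8 to 18.0 CPM in MEF, 138 to 141 at day 3, 194 to 201 at day 6, and 616.8 to 616.9 at day 9, with 105 to 109 in ESC. At day 9 against day 6, 7 of 9 tested were higher and 0 lower (5.18% and 2.68% of all genes). In ESC against day 9, 0 were higher and 6 lower (18.6% and 14.3%), and Tfap2a and Elf5 were also lower. Elf5 parted from them at day 3 against MEF, where 4 markers were higher and 2 lower (14.6% and 14.5% of all genes) while Elf5 was lower. All Elf5 reads of those groups were on the retained-intron Elf5-002, and that call was lost without MEF replicate 2. Elf5 parted again in ESC against MEF, where 6 were higher and 1 lower (25.5% and 20.6%) while Elf5 was not called. Tfap2a was called higher in both comparisons, at day 3 with a call lost without MEF replicate 1 or day 3 replicate 1. Krt6a averaged 0.461 CPM at day 6, 26.3 at day 9 and 0.0134 in ESC. Most of the day 9 sum came from the desmosome gene Dsp, at 250 CPM, and Perp, at 232 CPM. In ESC they averaged 26.6 and 19.8 CPM. Not every marker was highest at day 9: Trp63 averaged 0.670 CPM at day 3 and 0.366 at day 9. Sfn was nearly as high in ESC (43.3 CPM) as at day 9 (44.4 CPM). Of the basal keratins, Krt5 averaged 0.0588 CPM at day 6 and 0.517 at day 9 and Krt14 0.136 and 2.14, and both were called higher at day 9. Krt14 had 0 reads at day 3 and averaged 2.03 CPM in MEF. The part of such cells in the Tfap2a, Elf5 and Tfap2c values was not tested.

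The list of 31 extraembryonic and definitive endoderm genes had 24 tested. In ESC against day 9, 15 were higher and 2 lower (18.6% and 14.3% of all genes), with a median log2 fold change of 2.32 against 0.005 over all genes. Among those that rose were the visceral endoderm receptor Cubn and the forkhead factor Foxa3, which reached 2.13 and 0.612 CPM in ESC from 0 and 1 reads per library at day 9. Cubn also averaged 2.89 CPM in MEF and 1.69 at day 3, whereas Foxa3 had 0 reads in those libraries. The fibroblast markers above were also higher in ESC than at day 9, 11 of 12 (18.6% of all genes). Matrix genes such as Sparc belong to both cell kinds, and how much each contributes was not tested.

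Across the whole induction, day 9 against MEF, the endoderm list had 4 higher and 14 lower (24.1% and 19.8% of all genes), with a median of -2.03 against 0.193 over all genes. By step it had 3 higher and 7 lower at day 3 (14.6% and 14.5% of all genes), 4 higher and 9 lower at day 6 (9.26% and 10.2%), with 0 higher and 2 lower at day 9 (5.18% and 2.68%). Pdgfra, a receptor of primitive endoderm and of fibroblasts, went from 274 CPM in MEF to 1.57 at day 3 and 0.309 at day 9. Against that direction, the chemokine receptor Cxcr4 averaged 0.965 CPM in MEF, 12.03 at day 3, 19.2 at day 9 and 0.596 in ESC, and the laminin chain Lama1 9.20, 34.5, 194 and 79.6. Hhex, a homeobox factor of early endoderm, was higher at day 3 (2.82, SE 0.28) and day 6 (1.69, SE 0.18) and lower at day 9 (-1.39, SE 0.18). Among genes for secreted products of visceral endoderm, Ttr had 0 reads in all 10 libraries and Afp was at or under 0.0534 CPM in each, Apoa1 at or under 0.214 CPM, whereas Apob averaged 0.980 CPM in ESC.

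**Figure D5:**
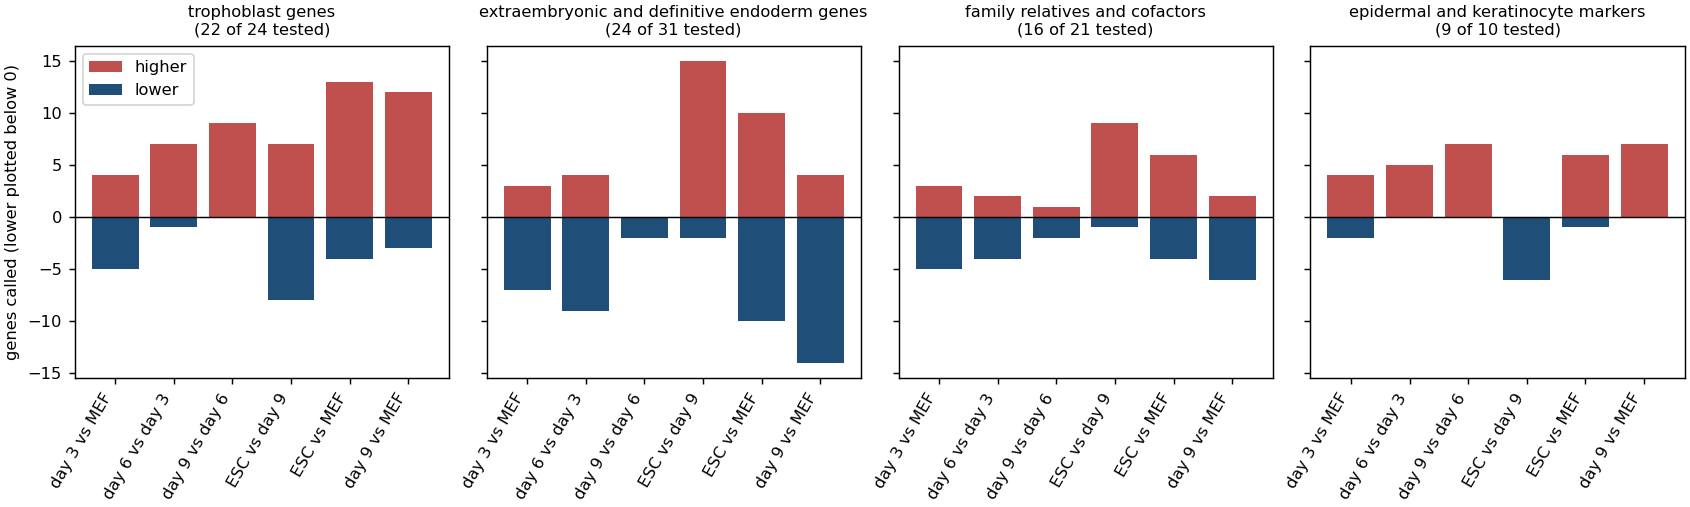
Number of genes called higher (above 0) and lower (below 0) in each of 6 comparisons for the trophoblast, endoderm, family and epidermal lists, with the number tested in each title. The endoderm list has 15 higher and 2 lower in ESC against day 9 and 4 higher and 14 lower at day 9 against MEF, and the epidermal list has 7 higher and 0 lower at day 9 against day 6.

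Among 21 relatives and cofactors of the 10 genes, 16 were tested. Ehf, an epithelial ETS factor related to Elf5, averaged 0.116 CPM in MEF, 108 at day 3, 182 at day 6, and 153 at day 9, but 0.600 in ESC. Day 3 exceeded MEF by a log2 difference of 9.81 (SE 0.1). Elf3, a further epithelial ETS factor, averaged 0.108 CPM in MEF, 0.422 at day 3, 2.53 at day 6, and 9.80 at day 9, with 27.1 in ESC. Elf3 thus had its highest level in ESC, where Ehf was low. Gata2, which acts beside Gata3 in trophoblast, averaged 19.0 CPM at day 3 against 4.78 in MEF, a log2 difference of 1.99 (SE 0.12). The GATA cofactor Zfpm2 (FOG2) went from 24.6 CPM in MEF to 0.456 at day 9 and 3.30 in ESC, and the AP-2 coactivator Cited2 from 77.5 to 3.49 and 40.4. Cdx1, a relative of Cdx2, averaged 1.95 CPM in ESC and had 0 reads at day 6 and day 9. In ESC against day 9 the list had 9 higher and 1 lower (18.6% and 14.3% of all genes), and at day 9 against MEF 2 higher and 6 lower (24.1% and 19.8%).

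For the 5 members that were called and reached 1 TPM in a group, the tested genes with the most similar course over the 5 group means were found, as the root mean square difference of centred log2 CPM with a prior count of 2. Tfap2c lay nearest to Spint1, an epithelial protease inhibitor, at 0.365, and to Gyltl1b at 0.478. Tfap2a lay nearest to Flg, the epidermal filaggrin gene, at 0.183, and to Rasef at 0.205; Flg averaged 1.53 CPM at day 9. Elf5 lay nearest to Krt8 at 0.307, with 149 CPM at day 9 and 11.2 in ESC, and to 4631405K08Rik at 0.39. Gata6 lay nearest to the homeobox gene Hoxc12 at 0.037 and to 4932441J04Rik at 0.232, and Gata4 to Gm29650 at 0.119 and Dcc, a netrin receptor, at 0.221. Several of these genes were at or under the floor in some groups (Flg in MEF, Hoxc12 and Dcc at day 9, and Gm29650 at 0 reads at day 3, 6 and 9), where the course depends on the prior count. These are likenesses over 5 points, with no test.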

How the data were processed

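Per the file headers, the table that the authors deposited for each library gives 109617 transcripts, each with its estimated count and its TPM. They were made with Salmon 0.8.2 and mm10, per the submitters' processing notes. Per the labels' protocols, stranded poly(A) libraries were sequenced as single reads of 50 nt, all under 1 batch label. The annotation release, strand setting and filters are not given in the sources used here.

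Here the estimated counts were summed per gene symbol and ID and rounded, and the deposited TPM values were summed. Genes were kept with filterByExpr of edgeR 4.0.16 (minimum count 10, minimum total 15; R 4.3.3), which left 20165. A gene with enough reads in 1 group only passed this filter through that group, so a call as higher there is not independent of the filter. Libraries were scaled with TMM, and 1 quasi-likelihood fit with a mean per group took in all 10 libraries. Each standard error is the size of the log2 difference divided by the root of its F statistic. The common biological coefficient of variation was 3.75%, and replicate counts differed by 2.91 to 5.42 times sampling noise (chi-square per degree of freedom), so no library was a copy of another. The fit was tested on simulated counts. Gene IDs were looked up in GENCODE M21 for GRCm38 coordinates, and promoter windows are RefSeq's.

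The 10 genes and the marker lists were chosen with earlier results of these data known. Named were all 10 genes, up to 3 called genes per direction from each list and comparison, and the 2 nearest courses for members that were called and reached 1 TPM. Other genes named by level alone (Tpbpa, Prl3d1, Gcm1, Hand1, Ttr, Afp, Apoa1, Apob, and the group values of Trp63 and Sfn) were chosen after their values were seen. So was Sparc, which is named without a value. Some list members are not reported here.

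Alternatives were DESeq2 1.42.0, no low-count filter, library-size scaling, limma 3.58.1 on log2(TPM + 1) and log2(TPM + 0.1), a replicate block and leaving out each library. Limma without transcripts of effective length under 200, and a fit without ESC, were chosen after seeing the data. Libraries with the same replicate number did not deviate together (mean correlation 9.9e-05, from -0.02 to 0.022 over group pairs), so the numbers do not pair them.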

Additional observations from a re-analysis of the deposited data

How the results depend on the processing

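Most calls rest on count tests, which depth limits for Cdx2, Sox17, Hnf4a and Sox7, as these had few reads. On a TPM scale with a pseudocount many calls were lost, also for Gata6 and Gata4. The calls that Gata6 and Gata4 lost with log2(TPM + 1) kept a limma adjusted p of 0.0071 or less, and missed only the fold threshold. With log2(TPM + 1), Gata4 in ESC against MEF was -0.78 and in ESC against day 9 0.5, neither called. With limma on log2(TPM + 1), the members called were 1 at day 3 against MEF, 2 at day 6 against day 3, 1 at day 9 against day 6, 2 in ESC against day 9 and 2 in ESC against MEF, where edgeR called 7, 4, 3, 7 and 7. With log2(TPM + 0.1) they were 3 at day 3 against MEF and 4 in ESC against MEF, and without short transcripts 3 and 3. Over all genes, log2(TPM + 1) called 2663, 1401, 382, 2768, 5055 and 4625 genes for day 3 against MEF, day 6 against day 3, day 9 against day 6, ESC against day 9, ESC against MEF and day 9 against MEF, where edgeR called 5873, 3926, 1586, 6637, 9290 and 8851. For day 9 against day 6, log2(TPM + 0.1) called 991 genes, and 944 without short transcripts.

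Leaving out 1 library at a time, the members called ranged from 5 to 7 at day 3 against MEF, 2 to 4 at day 9 against day 6, 5 to 7 in ESC against day 9, and 6 to 7 in both comparisons with MEF at ESC and day 9, and stayed at 4 at day 6 against day 3. Of 500 member values from leaving out a library, 470 kept direction and call, 18 lost and 3 gained a call, and 9 changed sign. Of 381 values from other settings, 319 kept both, 53 lost and 1 gained a call, and 8 changed sign.

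No called value changed sign. Elf5 in ESC against MEF became -0.02 and -0.15 without MEF replicate 1 or ESC replicate 1, in a range of -0.15 to 0.33. Gata3 became -0.03 and -0.02 at day 3 against MEF with log2(TPM + 0.1), with and without short transcripts, and -0.09 at day 6 against day 3 without day 3 replicate 2 (range -0.09 to 0.24). It became -0.03 and -0.18 in ESC against day 9 without short transcripts or day 9 replicate 2 (range over libraries -0.18 to 0.57), and 0.04 at day 9 against MEF without day 9 replicate 2 (range -0.7 to 0.04). In ESC against MEF it became 0.2 with library-size scaling and 0.38 and 0.6 with limma at either pseudocount. Gata4 at day 6 against day 3 became -0.02 with DESeq2 and in the fit without ESC, and -0.76 and -1.47 without day 3 replicate 1 or day 6 replicate 2 (range -1.47 to 1.6). At day 9 against day 6 it became 0.92 without day 6 replicate 2 (range -1.3 to 0.92), and Sox7 became -0.21 without day 9 replicate 1 (range -0.21 to 4.61). The cause of these changes was not tested.

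Library-size scaling moved the median log2 difference over the tested genes from 0.08 to 0.285 at day 3 against MEF, from 0.099 to 0.438 in ESC against MEF and from 0.193 to 0.482 at day 9 against MEF. Its calls over all genes were 3809 higher and 2483 lower at day 3 against MEF (2950 and 2923 with TMM), 6553 and 3152 in ESC (5142 and 4148) and 6241 and 3284 at day 9 (4857 and 3994). The members stayed at 3 higher and 4 lower, 5 and 2, and 4 and 3. With the replicate block, 7 members were called at day 3 against MEF and 5748 genes in all, and the members' counts were those of the fit without it in all 6 comparisons. Without both ESC libraries the members' counts were likewise 7, 4, 3 and 7.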

Other observations

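Markers of other cell types had courses of their own. Among 10 endothelial genes, the receptor Tek averaged 2.33 CPM in MEF, 121 at day 3, 68.3 at day 9 and 7.29 in ESC, and the junction gene Cdh5 0.138, 7.54, 3.39 and 0.1004. At day 3 against MEF, 3 endothelial markers were higher and 4 lower (14.6% and 14.5% of all genes). Among 10 immune markers, of which 9 were tested, 7 were higher in ESC than at day 9 and 0 lower (18.6% and 14.3% of all genes). At day 9 against day 6 edgeR called 0 in either direction (5.18% and 2.68%). The kinase gene Lck averaged 25.7 CPM in ESC, 11.05 at day 9 and 1.69 in MEF, and the macrophage gene Cd68 25.5, 6.67 and 1.71. At day 9 against MEF these 2 were the only immune markers called higher, and 4 were lower (24.1% and 19.8% of all genes). Among the lower, Csf1r averaged 3.69 CPM in MEF and 0.113 at day 9, Adgre1 0.948 and 0.0379, and Ptprc 0.928 and 0.0643.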
